A study of Mus musculus with 15 samples.

Results

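Antisense transcripts of the mouse heart were examined, meaning genes that the annotation places on the strand opposite to another gene. A gene entered when the deposited table gave antisense as its first type and when its log2 CPM (CPM is the number of reads of a gene scaled to the reads of its library) was at least 0 in at least 3 of the 11 libraries, so the members were chosen by their level in these same libraries. The cardiac myosin antisense RNA Mhrt was left out. These rules kept 186 of the 460 antisense entries, in a table of 16658 genes of which 13541 passed the same limit on level and were tested. Their level is therefore described and not tested.

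Natural antisense transcripts are RNAs copied from the strand opposite to a gene, often starting near its promoter or running through its body. Some act on the gene in cis, by interfering with its transcription or by bringing in chromatin modifiers, as Airn does at the imprinted Igf2r locus. Many others have no known role, and in the heart few have been studied.

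The hearts came from male C57BL/6 mice aged 8 to 10 weeks. The tissue is described as the infarct together with the muscle around it, and no statement is made here on an infarct in sham. The groups analysed are sham (3 libraries, Sham_003, Sham_006 and Sham_007), untreated (2 libraries, Cont_17 and Cont_19), rivaroxaban, which inhibits factor Xa (2 libraries, Riva-313 and Riva-319), dabigatran, which inhibits thrombin (2 libraries, Dabi-202 and Dabi-204), and activated protein C, or aPC, a natural anticoagulant protease (2 libraries, aPC-791 and aPC-792). Rivaroxaban was given at 3 mg/kg and dabigatran at 10 mg/kg for 7 days ahead of surgery, and aPC at 1 mg/kg 30 min ahead of it. Surgery closed the left anterior descending coronary artery for 90 min before 24 h of reperfusion, and dosing resumed 2 h after the operation. One account of the operation in the labels covers all groups. Sham and untreated are therefore kept as names, with no statement on whether their surgery included the closure. No label states that replicates are separate animals, and p-values then measure the spread between these libraries. In such bulk tissue, fewer cells of a type and less RNA per cell cannot be told apart.

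The sequences of 4 loci show what kinds of start sites the results below turn on. F630028O10Rik, the transcript with the largest difference between groups, contains the hairpin of the microRNA miR-223 on its own strand. Its body spans chrX:96239926-96243636 (+, mm10) and the hairpin lies at chrX:96242817-96242926, which is 2891 bases from its start. RefSeq (GRCm38.p6) gives the mature forms, shown with the seed (bases 2 to 8) in capitals because the seed defines the targets of a microRNA.
mmu-miR-223-5p: cGUGUAUUugacaagcugaguug
mmu-miR-223-3p: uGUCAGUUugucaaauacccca
The microRNA miR-223 is known as abundant in neutrophils and other myeloid cells, and the polyA libraries do not measure its mature forms.

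RefSeq start windows (250 bases before to 50 after a start) were found for 101 of the 186 transcripts, giving 123 windows. They were searched on both strands for the TATA box, spelled TATAAA, the CCAAT box, the GC box, spelled GGGCGG, the AP-1 motif, spelled TGANTCA, and the CRE motif, spelled TGACGTCA. Matches are in capitals below, where CCGCCC is the GC box read on the other strand. Positions count from 1 at the 5′ end of a window, and no matches in the windows shown overlap. The window of F630028O10Rik (chrX:96239676-96239975, +) holds none of the 5.
F630028O10Rik: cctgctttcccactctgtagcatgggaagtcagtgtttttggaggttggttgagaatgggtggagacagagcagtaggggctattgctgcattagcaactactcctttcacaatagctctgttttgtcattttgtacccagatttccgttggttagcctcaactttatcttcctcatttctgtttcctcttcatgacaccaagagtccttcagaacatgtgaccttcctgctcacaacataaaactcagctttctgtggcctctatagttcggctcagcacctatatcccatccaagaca
Col16a1 and the antisense Gm12963 start 66 bases apart and run away from each other. Their shared window (chr4:130047590-130047889, +, drawn on the Col16a1 strand) has 24 CpG and a GC content of 74.3%, with a GC box at positions 92 and 255 and a CCAAT box at 138, and Gm12963 starts at position 185.
Col16a1 and Gm12963: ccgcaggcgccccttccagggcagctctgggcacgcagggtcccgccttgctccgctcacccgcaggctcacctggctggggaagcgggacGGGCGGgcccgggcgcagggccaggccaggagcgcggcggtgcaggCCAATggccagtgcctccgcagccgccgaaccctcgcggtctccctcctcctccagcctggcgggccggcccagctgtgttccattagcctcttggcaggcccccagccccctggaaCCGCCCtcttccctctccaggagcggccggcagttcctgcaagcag
The window of 9530026P05Rik (chr6:92940332-92940631, +), antisense to Adamts9, holds an AP-1 motif at position 193 and a CCAAT box at 245, and its annotated start lies just before the window.
9530026P05Rik: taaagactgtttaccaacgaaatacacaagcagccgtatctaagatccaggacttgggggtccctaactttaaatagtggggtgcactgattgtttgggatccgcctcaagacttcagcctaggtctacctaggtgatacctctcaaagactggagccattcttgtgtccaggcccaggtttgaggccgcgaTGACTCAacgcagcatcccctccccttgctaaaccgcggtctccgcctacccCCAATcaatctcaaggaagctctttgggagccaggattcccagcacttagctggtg
Gm7854, antisense to Cpeb2, has an AP-1 motif at position 23 and a GC box at 231 of its window (chr5:43235305-43235604, -).
Gm7854: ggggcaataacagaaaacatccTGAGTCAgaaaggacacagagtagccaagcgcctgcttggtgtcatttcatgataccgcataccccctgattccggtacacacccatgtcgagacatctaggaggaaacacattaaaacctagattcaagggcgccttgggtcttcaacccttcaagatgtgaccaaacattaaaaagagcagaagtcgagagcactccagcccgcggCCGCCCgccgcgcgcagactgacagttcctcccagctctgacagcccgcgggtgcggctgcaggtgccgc
Of all 32851 RefSeq windows, the TATA box was in 13.6%, the CCAAT box in 37.4%, the GC box in 35.7%, the AP-1 motif in 7.81% and the CRE motif in 1.79%. Among the 123 windows of the antisense transcripts the shares were 5.69%, 34.1%, 43.9%, 7.32% and 2.44% in the same order. A match is a run of letters and not a bound site.

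The antisense transcripts were placed on GENCODE M21, an annotation of the mm10 build that holds 16654 of the 16658 gene identifiers deposited. It types all 186 as antisense. This is not an independent check, because the deposited types may come from the same annotation. Of the 186, 178 have a partner on the other strand, of which 173 code for protein. In 169 pairs the gene bodies overlap, and in 9 pairs the genes start apart in opposite directions within 2000 bases. No such partner was found for 8 transcripts, among them F630028O10Rik, Foxo6os and Gm3892. Exons of both strands overlap in 134 pairs, by a median of 259.5 bases. Starts lie within 2000 bases in 70 pairs. Of the 186 names, 92 are of the Gm kind, 64 end in Rik and 24 end in os, the ending for a gene opposite to a named one.

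As a class these transcripts were weakly expressed. Per length, their mean level had a median of 1.36 CPM per kb of exon, against 1.49 for the 280 long intergenic RNAs tested and 4.92 for 12834 protein-coding genes. The range ran from 0.0869 to 36.1, and 31 of 186 reached the protein-coding median. In all, 100 transcripts were at or above 0 log2 CPM in every library and 10 in exactly 3. Just inside the limit were Fbxl12os, 5033417F24Rik and Gm20522, for which the third highest library stood at 0.017, 0.018 and 0.041 log2 CPM. Just outside were Gm15788, Gm11715 and Gm36569 at -0.016, -0.002 and -0.002. Of the 273 entries below the limit, 218 had no library at 0 or above. A transcript that passes only through groups where it is high is bound to differ between groups, and 6 of the 186 passed through libraries of no more than 2 groups (C230034O21Rik, Gm16638, Gm4524, Gm20522, Gm26693 and Gm32569). The counts and medians of called transcripts below are therefore descriptions.

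Per length, the most abundant antisense transcript was 1600010M07Rik, which runs opposite to the importin gene Ipo7, at 36.1 CPM per kb of exon. It was followed by 1700112D23Rik (26.9), Airn (23.3), 9330179D12Rik opposite to the cyclin gene Ccnd2 (22.3) and 9330111N05Rik opposite to Adgrv1 (19.4). Tug1, a widely expressed long noncoding RNA whose exons overlap those of Morc2a by 483 bases, was among the 6 with the most reads. Its log2 CPM was 5.59, 5.30 and 5.72 in sham, 5.81 and 5.09 in untreated, 5.56 and 5.49 in rivaroxaban, 5.64 and 5.43 in dabigatran, and 5.77 and 5.54 in aPC libraries. The groups of Tug1 overlap throughout, and none of its 10 comparisons was called. The steadiest of the 186 were Gm37768, 2610206C17Rik and Gm20632, with an SD over the 11 libraries of 0.16, 0.16 and 0.20 on the log2 scale. The most variable were Gm13707 (1.53), F630028O10Rik (1.48) and Gm16126 (1.42). Gm13707 had 0 reads in Cont_19 and 48 in Cont_17, Gm16126 had 0 in Dabi-202 and 27 in Dabi-204, and neither was called in any comparison.

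Whether reads of both strands were kept apart bears on every value here. Per the labels the library kit marks the strand, but the strand setting of the counting is not given in the sources used here, so a read from the partner could have been given to the antisense gene where exons overlap. Recovered read numbers allowed the pair to be set side by side in 146 pairs. Per length, the antisense level was a median of 33.4% of that of its partner, above it in 38 pairs and under 1% in 6. Gm15179 overlaps exons of Des, the muscle intermediate filament desmin, by 220 bases, and had 0.087% as many reads as Des. Gm15533 overlaps Trim72, a membrane repair gene of muscle, by 617 bases and had 0.47% as many. Gm10138 overlaps Ivns1abp by 279 bases and had 0.31% as many. In the other direction, 9330111N05Rik and Atcayos had more reads than their partners, since Adgrv1 stood between -1.55 and -0.11 log2 CPM and Atcay between -1.35 and 1.93. For 32 pairs the partner was not analysed here, including Txnip, Cav1, Cavin2, Ipo7, Plet1 and Shh. Sharing of reads between strands was not tested further.

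**Figure D1:**
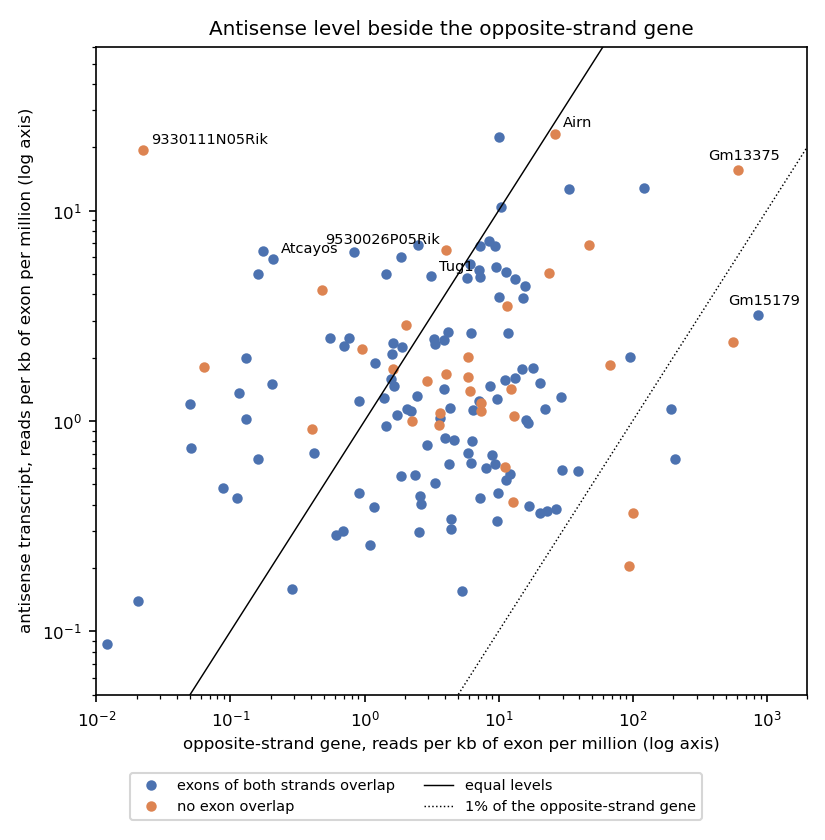
Mean level of each antisense transcript (vertical axis) against its opposite-strand partner (horizontal axis), both in CPM per kb of exon over the 11 libraries on log axes, for 146 pairs. Blue points are pairs whose exons overlap, orange points pairs whose exons do not, the solid line marks equal levels and the dotted line 1% of the partner; 38 pairs lie above the solid line and 6 below the dotted one.

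Libraries held 26203566 to 36135006 reads on listed genes, so that 0 log2 CPM corresponds to 22.8 to 37.4 reads and 3 reads to -2.83 to -2.41 log2 CPM. The antisense transcripts took 0.0799% of the reads in Cont_19, 0.0858% and 0.0842% in the aPC libraries and 0.101% to 0.122% in the remaining 8. Cont_19 stood apart within its group: it was the lowest of the 11 for 64 transcripts and the highest for 33. The median SD within a group was 0.44 on the log2 scale for the untreated pair and 0.16 to 0.26 for the other groups. Results against the untreated group rest on that pair. Near-identical transcripts elsewhere in the genome (at least 95% identity over at least 50% of the length) were found for 9 of the 186, and these are uncertain because reads may have been split between copies. They are 9330111N05Rik, A930015D03Rik, E430024P14Rik, Gm13299, Gm13307, Gm16008, Gm21847, Gm27177 and Gm3892.

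Over the 10 comparisons, 68 of the 186 transcripts were called at least once and 118 never, with 151 calls in all. Transcripts were called in limma at an adjusted p of less than 0.05, with the Benjamini-Hochberg adjustment made across all 13541 genes. In the untreated hearts against sham, 15 were called, 3 higher and 12 lower. Among all genes tested 10.6% were called in that comparison, 5.07% higher and 5.52% lower. With rivaroxaban against untreated 12 were called, 8 higher and 4 lower, beside 8.47% of all genes (4.02% and 4.45%). With dabigatran against untreated 16 were called, 5 higher and 11 lower, beside 13.8% (8.71% and 5.08%). With aPC against untreated 25 were called, 7 higher and 18 lower, beside 17.6% (7.44% and 10.2%).

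No transcript was called for rivaroxaban against sham, where 0% of all genes were called in limma. At an unadjusted p under 0.05 there were 12 of the 186 and 761 of all genes, and library weights gave 5 calls, 4 higher and 1 lower. With dabigatran against sham 16 were called, 4 higher and 12 lower, beside 18.5% of all genes (11.7% and 6.82%), and with aPC against sham 3 were called, all lower, beside 1.17% (0.126% and 1.05%). With library weights these counts were 20 and 25. In dabigatran against rivaroxaban 36 were called, 4 higher and 32 lower in dabigatran. In that comparison the share of all genes tested was 23.3%, made up of 14% higher and 9.39% lower. With aPC against rivaroxaban 7 were called, 1 higher and 6 lower, beside 1.54% (0.207% and 1.33%), and with aPC against dabigatran 21, 12 higher and 9 lower, beside 21.5% (9.21% and 12.3%).

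The lean toward lower values in dabigatran against rivaroxaban was larger in the weaker transcripts. Split at the middle by mean level, the median log2 difference was -0.31 in the stronger transcripts and -0.54 in the weaker. The median log2 difference of the 186 was -0.42, while that of all genes tested was 0.00, and 140 of 186 were negative. The long intergenic RNAs tested had a median of -0.28 in the same comparison. Against sham the median of the 186 under dabigatran was -0.37, with 135 negative, and that of all genes 0.01. Under aPC against rivaroxaban the median was -0.33, with 130 negative, beside 0.02 for all genes and -0.24 for the long intergenic RNAs, and with quantile normalization it was -0.17. Split by level in the same way, the medians for aPC against rivaroxaban were -0.27 and -0.55. All genes tested had a median level of 4.37 log2 CPM, against 1.10 for the 186, and were not matched to them in level. The comparisons named here share libraries and are not independent of each other.

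**Figure D2:**
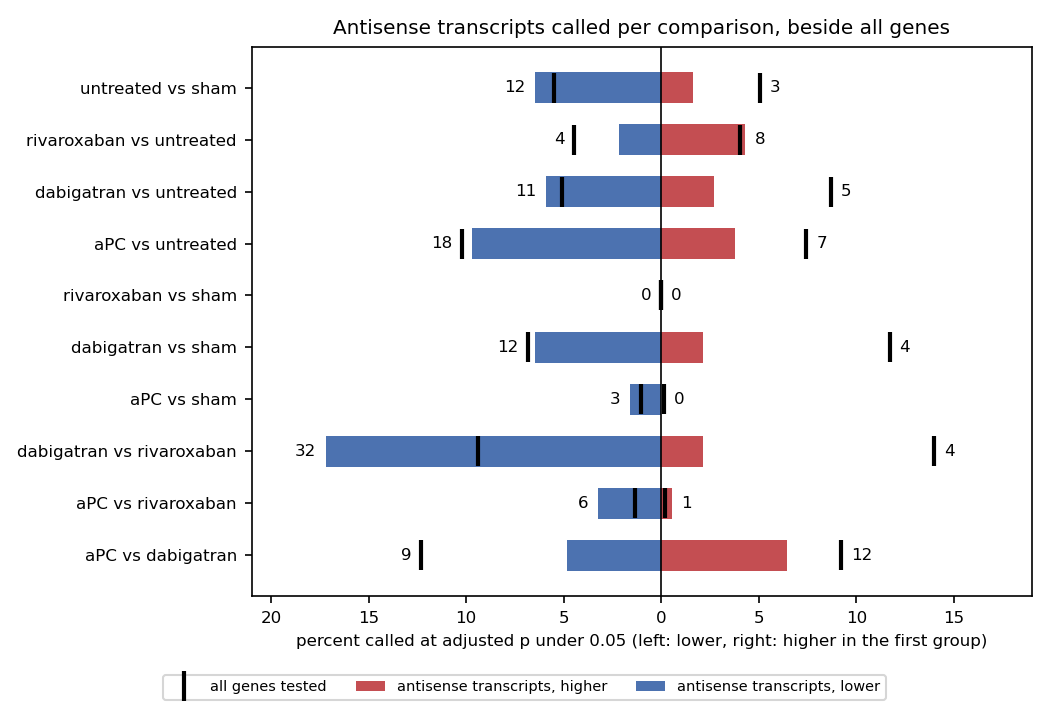
Share of the 186 antisense transcripts called higher (red, right) or lower (blue, left) in the first-named group of each comparison, in percent, with the number of transcripts beside each bar and a black tick at the share of all 13541 genes tested. In dabigatran against rivaroxaban the 32 lower calls are 17.2% of the transcripts, beside a tick at 9.39%, and the 4 higher calls 2.15%, beside a tick at 14%.

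These counts depend on single libraries, and so does their split into higher and lower. Without Cont_17, higher calls outnumbered lower ones for dabigatran and for aPC against untreated, the reverse of the main fit. Only Cont_19 is then left in the untreated group. The 15 for untreated against sham became 3, 1 and 5 without Sham_003, Sham_006 and Sham_007, 69 without Cont_17, 5 without Cont_19 and 8 without Riva-313 or Riva-319. The 12 for rivaroxaban against untreated became 76 without Cont_17, 7 without Cont_19, 0 without Riva-313 and 1 without Riva-319. The 16 for dabigatran against untreated became 59 without Cont_17, 6 without Dabi-202 and 10 without Riva-313 or Riva-319. The 25 for aPC against untreated became 66 without Cont_17, 16 without Sham_006, 13 without aPC-791 and 1 without aPC-792. For dabigatran against rivaroxaban, 36 became 2 without Riva-313, 6 without Riva-319, 3 without Dabi-202, 59 without Cont_17 or Cont_19, and 22 or 23 without any 1 sham or aPC library. For dabigatran against sham, 16 became 4 without Sham_003, 7 without Sham_006 or Sham_007, 1 without Dabi-202 and 38 without Cont_17 or Cont_19. For aPC against dabigatran, 21 became 4 without Dabi-202, aPC-791 or aPC-792 and 47 without Cont_17 or Cont_19. The 3 for aPC against sham became 15 without Cont_17 or Cont_19 and 0 without any 1 sham, rivaroxaban or aPC library. The 7 for aPC against rivaroxaban became 23 without Cont_17 or Cont_19, 1, 0 and 3 without Sham_003, Sham_006 and Sham_007, 4 without either dabigatran library and 0 without any 1 rivaroxaban or aPC library.

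Quantile normalization in place of the deposited scaling moved the split of higher to lower calls to 5 and 11 for untreated against sham, 2 and 20 for dabigatran against sham, and 23 and 5 for aPC against dabigatran. In the last of these it raised the median of all genes by 0.11, from -0.05.

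F630028O10Rik, the host of miR-223, was high in both dabigatran hearts. Its log2 CPM was 1.25, 1.47 and 1.44 in sham, 2.06 and 0.69 in untreated, 0.26 and 0.69 in rivaroxaban, 5.20 and 3.99 in dabigatran, and 2.08 and 1.36 in aPC libraries. In reads, the dabigatran libraries had 967 and 634, and the other 9 libraries had 32 to 133. Both dabigatran libraries lie above every other library. The difference was 4.12 ± 0.49 (log2, SE) against rivaroxaban (adjusted p = 0.00065), 3.21 ± 0.45 against sham (adjusted p = 0.00198), 3.22 ± 0.49 against untreated (adjusted p = 0.00311), and aPC was lower than dabigatran by 2.88 ± 0.49 (adjusted p = 0.00411). The calls against rivaroxaban, sham and aPC held under all 15 alternative settings. That against untreated was lost with library weights or with only the 2 groups fitted, where its adjusted p reached 0.0555.

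The sum of neutrophil markers was also highest in the dabigatran hearts. The summed level of S100a8, S100a9, Csf3r, Cxcr2 and Retnlg, all 5 of them measured, was 427 to 813 CPM in dabigatran, 80.4 to 115 in untreated, 34.9 to 92.6 in aPC, 26.0 to 41.8 in sham and 13.9 to 32.5 in rivaroxaban. All 5 were called higher in dabigatran than in sham and than in rivaroxaban, and 4 of the 5 higher than in untreated. Retnlg overlapped, at 3.83 and 1.12 log2 CPM in dabigatran against 2.73 and 3.67 in untreated and 2.16 in aPC-791. The other markers lay above all other libraries in both dabigatran libraries. In untreated against sham 3 of the 5 were called higher, while F630028O10Rik differed by -0.01 ± 0.45 (adjusted p = 0.99). Cont_19 had the highest marker sum outside dabigatran and 44 reads of the transcript, below the 77 to 90 of the sham libraries. Cont_17 had 133 reads, the most outside dabigatran, at a marker sum of 80.4. The aPC libraries had 102 and 61 reads at sums of 92.6 and 34.9, and the rivaroxaban libraries 32 and 54 at 13.9 and 32.5. Monocyte markers (4 of 4 measured) summed to 109 to 198 CPM in dabigatran and 42.5 to 92.1 elsewhere. Of the 4, 2 were called higher in dabigatran than in sham and 1 than in untreated. The markers differed among themselves: Ccr2 and Chil3 were highest in both dabigatran libraries. Plac8 overlapped (1.96 and 2.27 log2 CPM against 2.24 in Sham_003), and Ly6c2 was at 4.82 and 4.22, the latter the lowest of the 11 libraries. The part of neutrophils or monocytes in the level of F630028O10Rik was not tested.

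**Figure D3:**
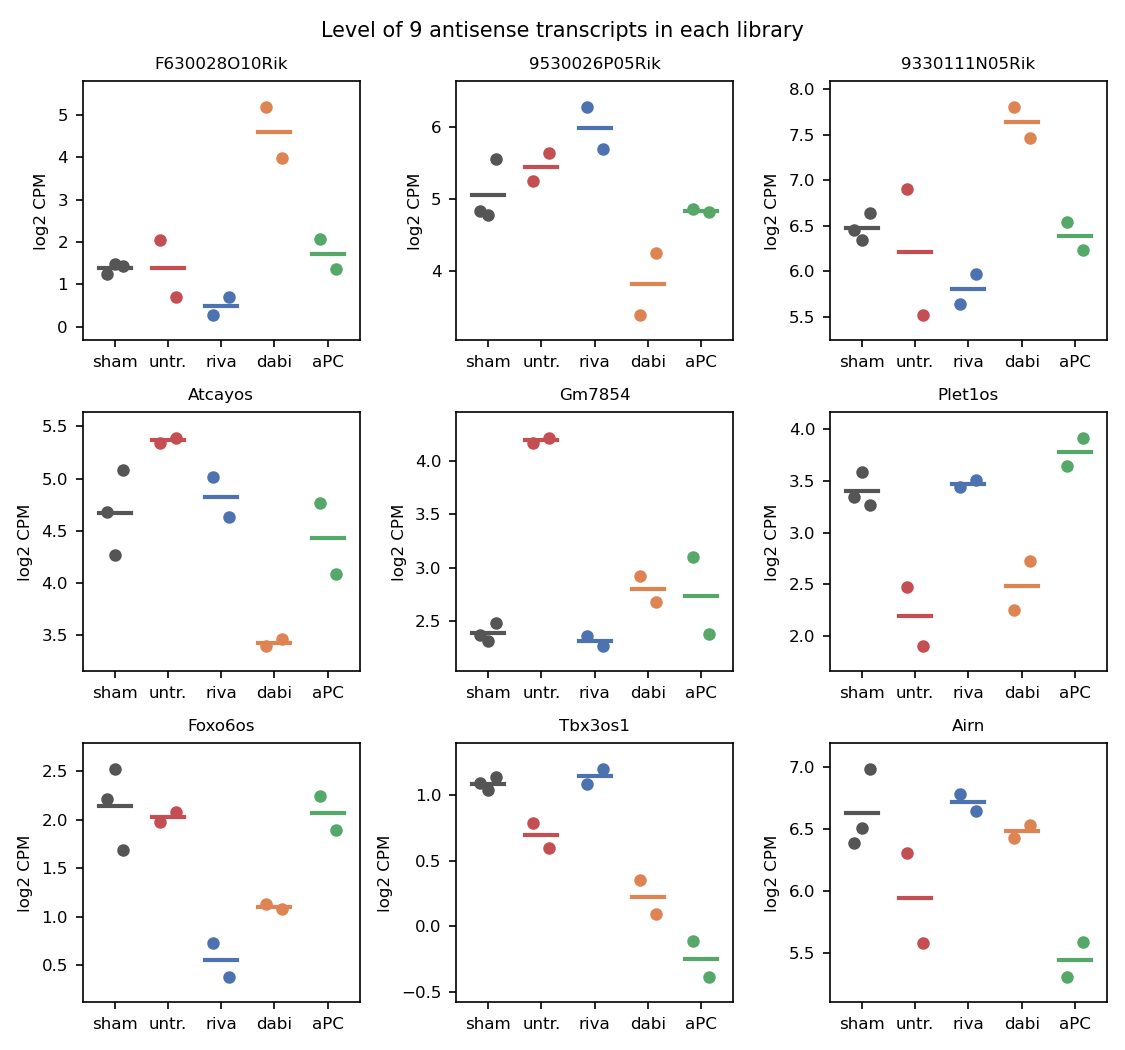
Log2 CPM (vertical axes) of 9 antisense transcripts in each library, by group (horizontal axes); points are libraries and lines are group means. Dabigatran stands above all other groups for F630028O10Rik and 9330111N05Rik and below them for 9530026P05Rik and Atcayos, untreated stands above for Gm7854, and aPC stands below for Tbx3os1.

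Among transcripts beside genes of the extracellular matrix, 9530026P05Rik went against its partner. It runs opposite to Adamts9, a secreted protease that cuts proteoglycans, from a start 3163 bases away and with no exon overlap. Its log2 CPM was 4.84, 4.78 and 5.56 in sham, 5.25 and 5.64 in untreated, 6.29 and 5.71 in rivaroxaban, 3.39 and 4.25 in dabigatran, and 4.87 and 4.82 in aPC. The dabigatran libraries are the lowest of the 11 and the rivaroxaban libraries the highest. It was lower in dabigatran than in rivaroxaban by 2.18 ± 0.33 (adjusted p = 0.00196), held under all 15 alternatives, whereas Adamts9 was higher by 1.07 ± 0.31 (adjusted p = 0.0316).

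In no other comparison were both genes of the Adamts9 pair called with opposite signs. Adamts9 was at 7.75 and 6.81 log2 CPM in untreated hearts and at 4.59 to 5.42 in sham, a rise of 2.18 ± 0.28 (adjusted p = 0.00282). The antisense differed there by 0.39 ± 0.31 (adjusted p = 0.403). With dabigatran against untreated both fell, 9530026P05Rik by 1.63 ± 0.33 (adjusted p = 0.0123, lost without Dabi-202, with library weights or with only the 2 groups) and Adamts9 by 1.38 ± 0.31 (adjusted p = 0.0178). Against sham the antisense was lower in dabigatran by 1.24 ± 0.31 (adjusted p = 0.0208, lost without Sham_007 or Dabi-202), and Adamts9 differed by 0.80 ± 0.28 (adjusted p = 0.0747).

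Antisense transcripts at 2 collagen genes fell together with them in the untreated hearts. Gm12426 lies opposite to Col15a1, a basement membrane collagen, with starts 298 bases apart. It stood at 1.01, 1.22 and 1.02 log2 CPM in sham, -0.49 and -2.54 in untreated, 0.50 and 0.28 in rivaroxaban, 0.73 and 1.95 in dabigatran, and 0.17 and 0.77 in aPC. Both untreated libraries are the lowest, Cont_19 with 3 reads. The fall against sham was -2.60 ± 0.56 (adjusted p = 0.02), that of Col15a1 -1.63 (adjusted p = 0.0379), and without Cont_19 the call of Gm12426 was lost, with a difference of -1.57, as it was without any 1 sham library, with library weights or with only the 2 groups. Under dabigatran both were higher than in untreated, Gm12426 by 2.86 ± 0.61 (adjusted p = 0.0146, lost without Dabi-204, with library weights or with only the 2 groups) and Col15a1 by 1.78 (adjusted p = 0.0327).

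Gm12963, which shares the CpG-rich start region with the fibril-associated collagen Col16a1, was at 0.48, 0.38 and 0.34 log2 CPM in sham, -0.92 and -1.14 in untreated, 1.27 and 0.95 in rivaroxaban, -0.66 and 0.37 in dabigatran, and -0.32 and 0.01 in aPC. The untreated libraries are the lowest and the rivaroxaban libraries the highest. Its fall in untreated against sham was -1.43 ± 0.36 (adjusted p = 0.0338, lost in 8 of 15 alternatives) beside -1.30 for Col16a1 (adjusted p = 0.0152). With rivaroxaban against untreated it rose by 2.14 ± 0.39 (adjusted p = 0.0144, lost without either rivaroxaban library, with library weights or with only the 2 groups) and Col16a1 by 1.08 (adjusted p = 0.0421). Dabigatran was below rivaroxaban for the antisense, by -1.25 ± 0.39 (adjusted p = 0.0425, lost in 9 of 15), while Col16a1 differed by 0.05 (adjusted p = 0.918). Fibroblast markers, 5 of 5 measured, summed to 704 to 774 CPM in untreated and 1006 to 1521 in sham, with 2 of the 5 called lower. The markers differed among themselves: Col1a1 and Col3a1, collagen genes too, stood at 5.61 to 5.95 and 5.83 to 6.75 log2 CPM in untreated against 7.32 to 7.88 and 8.50 to 9.43 in sham, whereas Pdgfra (6.11 and 6.62 against 5.80 to 6.16) and Dcn (8.85 and 9.14 against 8.72 to 9.03) overlapped between the groups. Tcf21 did not overlap, at 2.33 and 2.84 in untreated against 2.91 to 3.15 in sham. The part of fibroblasts in these falls was not tested.

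Other matrix neighbours were called on the antisense side. Gm26703 runs opposite to Sparcl1, a matricellular protein of the SPARC family, without exon overlap, and stood at -1.69 and -1.35 log2 CPM in aPC against -0.66 to 1.15 in the other 9 libraries. Both aPC libraries are the lowest. It was lower in aPC than in rivaroxaban by 2.61 ± 0.46 (adjusted p = 0.0283, lost in 5 of 15 alternatives), whereas Sparcl1 differed by -0.21 (adjusted p = 0.649). In dabigatran against rivaroxaban both fell, Gm26703 by 1.55 ± 0.46 (adjusted p = 0.0346, lost without Sham_006 or any 1 rivaroxaban or dabigatran library) and Sparcl1 by 1.13 ± 0.23 (adjusted p = 0.00781). Gm27177, opposite to the collagen crosslinking enzyme gene Loxl2, was lower in dabigatran than in rivaroxaban by 2.35 ± 0.56 (adjusted p = 0.0141, lost without either rivaroxaban library or Dabi-202), but sham alone spanned 0.41 to 2.28 and a near-identical copy makes its reads uncertain.

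Tbx3os1 and Irx3os, beside genes of developmental transcription factors, were lowest in the aPC hearts. Tbx3os1 starts 696 bases from Tbx3, a T-box factor of the conduction system, and overlaps its exons by 115 bases. It was at 1.09, 1.04 and 1.14 log2 CPM in sham, 0.79 and 0.60 in untreated, 1.09 and 1.20 in rivaroxaban, 0.35 and 0.09 in dabigatran, and -0.12 and -0.39 in aPC. The aPC libraries lie below all others and the dabigatran libraries come next. Against sham aPC was lower by 1.34 ± 0.26 (adjusted p = 0.0391), against rivaroxaban by 1.40 ± 0.29 (adjusted p = 0.0439) and against untreated by 0.95 ± 0.29 (adjusted p = 0.0466). In the same order these calls were kept in only 7, 6 and 2 of 15 alternatives. Tbx3 itself stood at 3.64 and 3.82 in aPC and 4.08 to 5.21 elsewhere, and of these 3 comparisons was called only in that against untreated, where it was lower by 1.22 (adjusted p = 0.0154).

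Irx3os, which overlaps exons of the homeobox gene Irx3 by 124 bases, was at 0.25, 0.04 and 1.09 log2 CPM in sham, 1.53 and 0.66 in untreated, 1.80 and 1.73 in rivaroxaban, 1.18 and 1.26 in dabigatran, and -0.85 and -0.39 in aPC. Both aPC libraries are the lowest of the 11. The transcript was lower in aPC than in rivaroxaban by 2.38 ± 0.42 (adjusted p = 0.0285, lost in 6 of 15 alternatives), than in dabigatran by 1.84 ± 0.42 (adjusted p = 0.0131, lost without Dabi-202 or aPC-791) and than in untreated by 1.72 ± 0.42 (adjusted p = 0.0226, lost in 4 of 15). Irx3 differed by -0.13, 0.30 and -0.67 in those comparisons, with adjusted p = 0.793, 0.387 and 0.0696.

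Foxo6os, named for the forkhead factor gene Foxo6, was low in both groups given a direct inhibitor of a clotting protease. Its log2 CPM was 2.21, 2.52 and 1.69 in sham, 1.98 and 2.08 in untreated, 0.73 and 0.38 in rivaroxaban, 1.13 and 1.08 in dabigatran, and 2.24 and 1.89 in aPC. The rivaroxaban and dabigatran libraries all lie below the other 7. Rivaroxaban was lower than untreated by 1.47 ± 0.31 (adjusted p = 0.0227, lost in 5 of 15 alternatives), dabigatran lower than sham by 1.04 ± 0.28 (adjusted p = 0.0306, lost in 4 of 15), and aPC higher than rivaroxaban by 1.51 ± 0.31 (adjusted p = 0.0439, lost in 9 of 15). Rivaroxaban against sham gave -1.59 ± 0.28 with adjusted p = 0.37, the smallest p of the 186 in that comparison. B630019A10Rik had the smallest p on the higher side there, at 1.29 ± 0.36 (adjusted p = 0.639).

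Of 38 well-studied antisense and related RNAs listed for the analysis, only 6 were antisense entries of the deposited table and could have entered. Of these 6, 4 were among the 186: Airn, Foxo6os, Gm15441 and Wt1os. Airn, the imprinted RNA that keeps the paternal Igf2r allele silent in many tissues, stood at 6.38, 6.50 and 6.98 log2 CPM in sham, 6.30 and 5.57 in untreated, 6.78 and 6.64 in rivaroxaban, 6.43 and 6.53 in dabigatran, and 5.30 and 5.58 in aPC. The aPC libraries lie below all but Cont_19, which falls between them. The level in aPC was lower than in sham by 1.18 ± 0.23 (adjusted p = 0.0364), than in rivaroxaban by 1.27 ± 0.25 (adjusted p = 0.0376) and than in dabigatran by 1.04 ± 0.25 (adjusted p = 0.0163), and these were lost in 9, 8 and 4 of 15 alternatives. Igf2r, the receptor that clears insulin-like growth factor 2, differed by -0.60, -0.43 and 0.04, with adjusted p = 0.178, 0.277 and 0.916.

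Gm15441, opposite to the thioredoxin inhibitor gene Txnip, was at -0.12, 0.38 and 0.26 log2 CPM in sham, 0.68 and 0.90 in untreated, -0.24 and 0.67 in rivaroxaban, -0.04 and -0.70 in dabigatran, and 1.16 and 1.24 in aPC. The aPC libraries are the highest of the 11. It was higher in aPC than in dabigatran by 1.57 ± 0.39 (adjusted p = 0.0201, lost without Dabi-204 or either aPC library), and no other comparison of it was called. Wt1os was between -0.95 and 1.13 over the 11 libraries and was not called in any comparison.

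Gm7854 was highest in the untreated hearts. It lies opposite to Cpeb2, which binds polyadenylation elements of messenger RNAs, with starts 2185 bases apart and 137 bases of exon overlap. The values were 2.37, 2.31 and 2.48 log2 CPM in sham, 4.17 and 4.22 in untreated, 2.36 and 2.26 in rivaroxaban, 2.92 and 2.68 in dabigatran, and 3.10 and 2.38 in aPC. Both untreated libraries are above the rest and close to each other, Cont_19 included. Untreated was higher than sham by 1.81 ± 0.23 (adjusted p = 0.00255), lost only with library weights (adjusted p = 0.084). Rivaroxaban was lower than untreated by 1.88 ± 0.25 (adjusted p = 0.00452), dabigatran by 1.40 ± 0.25 (adjusted p = 0.00635) and aPC by 1.46 ± 0.25 (adjusted p = 0.00623), each lost with library weights and with only the 2 groups, the first also without Riva-313 and the last without aPC-792. Cpeb2 ranged from 5.15 to 5.94 and was called in none of the 4.

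Several transcripts were lower in the untreated hearts than in sham and higher with rivaroxaban than in untreated. Plet1os, antisense to the surface protein gene Plet1, stood at 3.34, 3.58 and 3.27 log2 CPM in sham, 2.48 and 1.90 in untreated, 3.44 and 3.50 in rivaroxaban, 2.25 and 2.72 in dabigatran, and 3.64 and 3.92 in aPC. Untreated and dabigatran do not overlap with the other groups. It fell in untreated against sham by 1.21 ± 0.23 (adjusted p = 0.0145, lost without Sham_006, with library weights or with only the 2 groups), was higher with rivaroxaban than in untreated by 1.28 ± 0.25 (adjusted p = 0.019, lost in 4 of 15 alternatives), higher with aPC than in untreated by 1.59 ± 0.25 (adjusted p = 0.00468, lost without aPC-792 or with only the 2 groups), and was higher in aPC than in dabigatran by 1.29 ± 0.25 (adjusted p = 0.00708, lost without Dabi-202 or aPC-792). Plet1os and Gm21847 were each called in 6 of the 10 comparisons, more than any other of the 186. Gm21847 passed the limit on level mainly through the untreated and dabigatran libraries, where it was high, so its number of calls is a description.

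Gm2415, opposite to the integrin gene Itga9, 9330175M20Rik, opposite to the caveolae gene Cavin2, and Gm28153, opposite to Crispld1, showed the same order. Gm2415 was lower in untreated than in sham by 1.46 ± 0.28 (adjusted p = 0.0138) and higher with rivaroxaban than in untreated by 1.44 ± 0.30 (adjusted p = 0.0226). The figures for 9330175M20Rik were -1.28 ± 0.24 (adjusted p = 0.0131) and 1.51 ± 0.26 (adjusted p = 0.0116), and for Gm28153 -1.62 ± 0.38 (adjusted p = 0.0267) and 1.89 ± 0.41 (adjusted p = 0.0256). Those of Gm28153 were lost in 6 and 5 of 15 alternatives, and both without Cont_19, where they were -1.13 and 1.40. These pairs of differences share the untreated libraries. Itga9 differed by -0.17 and -0.14, with adjusted p = 0.533 and 0.635. Gm2415 and 9330175M20Rik fall outside the rule for naming and were chosen after their values were seen. How their calls held under the 15 alternatives is not given here.

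Gm14966, opposite to the kinase gene Map4k2 with 94 bases of exon overlap, was lowest with aPC. Its values were 2.07, 1.63 and 2.01 log2 CPM in sham, 2.01 and 3.45 in untreated, 2.67 and 2.88 in rivaroxaban, 1.40 and 1.48 in dabigatran, and 0.27 and 0.58 in aPC. The aPC libraries are below the other 9 and the dabigatran pair comes next. It was lower in aPC than in untreated by 2.30 ± 0.40 (adjusted p = 0.00682, lost with only the 2 groups fitted) and than in rivaroxaban by 2.35 ± 0.40 (adjusted p = 0.0273, lost in 7 of 15 alternatives). Map4k2 was lower too, by 0.56 (adjusted p = 0.0289) and 1.44 (adjusted p = 0.0037). Junos, opposite to the immediate early gene Jun and named after its values were seen, was lower in aPC than in dabigatran by 1.06 ± 0.32 (adjusted p = 0.0388), and so was Jun, by 0.94 (adjusted p = 0.0496). How the call of Junos held under the alternatives is not given here.

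Slfn5os, antisense to the Schlafen gene Slfn5 with 559 bases of exon overlap, was highest in sham. It stood at 3.53, 3.05 and 3.12 log2 CPM in sham, 1.84 and 2.02 in untreated, 2.22 and 2.39 in rivaroxaban, 1.05 and 2.24 in dabigatran, and 1.95 and 2.69 in aPC. Sham does not overlap with any other group. The fall against sham was 1.31 ± 0.35 in untreated (adjusted p = 0.0416, lost in 7 of 15 alternatives) and 1.59 ± 0.35 in dabigatran (adjusted p = 0.0139, lost without Sham_003 or Dabi-202). Slfn5 fell by 0.69 in the second of these (adjusted p = 0.00863) and differed by -0.11 in the first (adjusted p = 0.603).

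At muscle genes, Gm15179 was lowest in aPC while its partner Des was not. The antisense was at 1.73, 1.50 and 1.89 log2 CPM in sham, 1.85 and 2.16 in untreated, 1.69 and 1.45 in rivaroxaban, 1.03 and 1.16 in dabigatran, and 0.50 and 0.37 in aPC. The aPC libraries are the lowest and the dabigatran libraries the next. It was lower in aPC than in untreated by 1.57 ± 0.27 (adjusted p = 0.00614, lost without aPC-792, with library weights or with only the 2 groups) and than in sham by 1.27 ± 0.24 (adjusted p = 0.0361, lost in 8 of 15 alternatives). Des lay between 11.26 and 12.09 throughout and differed by 0.15 and 0.40, with adjusted p = 0.554 and 0.236. Cardiomyocyte markers, 5 of the 7 listed, summed to 53999 to 58508 CPM in aPC and 48728 to 67252 in sham.

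Atcayos, opposite to the neuronal gene Atcay, was lowest under dabigatran. Its log2 CPM was 4.68, 4.27 and 5.08 in sham, 5.34 and 5.39 in untreated, 5.01 and 4.63 in rivaroxaban, 3.40 and 3.47 in dabigatran, and 4.77 and 4.09 in aPC. Both dabigatran libraries lie below the other 9. Dabigatran was lower than untreated by 1.94 ± 0.28 (adjusted p = 0.00245, lost only with library weights), than rivaroxaban by 1.39 ± 0.28 (adjusted p = 0.00678, lost without Riva-313 or Dabi-202) and than sham by 1.24 ± 0.26 (adjusted p = 0.0103, lost only without Dabi-202, adjusted p = 0.102). 4930481A15Rik, opposite to the corepressor gene Drap1, was at 5.88 and 5.69 in rivaroxaban and 3.49 in each dabigatran library. The difference was -2.30 ± 0.49 (adjusted p = 0.00857, lost without Riva-313 or Dabi-202), and Drap1 differed by -0.03 (adjusted p = 0.898). Cardiomyocyte markers summed to 37620 to 38058 CPM in dabigatran, below the lowest other library at 47948, with 2 of 5 called lower against sham and none against rivaroxaban. Singly, Myh6, Tnnt2 and Ryr2 were below all other libraries in both dabigatran libraries. Tnni3 (11.636 log2 CPM in Dabi-202, 11.628 in Cont_17) and Myl2 (12.349 in Dabi-202, 12.347 in Sham_003) overlapped. The part of cardiomyocytes in these falls was not tested.

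9330111N05Rik had the most reads of the class and was highest with dabigatran. It stood at 6.46, 6.34 and 6.64 log2 CPM in sham, 6.91 and 5.52 in untreated, 5.64 and 5.97 in rivaroxaban, 7.81 and 7.46 in dabigatran, and 6.54 and 6.24 in aPC. The dabigatran libraries are above all others and the untreated pair spans most of the remaining range. Dabigatran was higher than rivaroxaban by 1.83 ± 0.35 (adjusted p = 0.00544, lost without Riva-313 or Dabi-202) and than sham by 1.16 ± 0.32 (adjusted p = 0.0324, lost in 5 of 15 alternatives). 1600010M07Rik was higher than in sham by 0.57 ± 0.18 (adjusted p = 0.0473, lost in 11 of 15), with 6.72 and 6.10 in dabigatran and 5.71 to 5.94 in sham. A transcript of 100% identity, Gm49375, leaves the source of the 9330111N05Rik reads uncertain.

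Among the transcripts with near-identical copies, Gm3892 on chromosome 4 has 13 similar genes. It was at 2.05, 0.99 and 1.16 log2 CPM in sham, 2.39 and 2.72 in untreated, 2.43 and 2.17 in rivaroxaban, 0.12 and 0.62 in dabigatran, and 1.33 and 0.33 in aPC. The dabigatran pair does not overlap with sham, untreated or rivaroxaban. It was lower in dabigatran than in untreated by 2.18 ± 0.43 (adjusted p = 0.01, lost in 3 of 15) and than in rivaroxaban by 1.93 ± 0.43 (adjusted p = 0.0108, lost without Riva-313 or Dabi-202). Gm21847 was at 0.81 and 1.46 in untreated and 0.70 and 0.92 in dabigatran, above the other 7 libraries (-0.89 to 0.04), and was higher in untreated than in sham by 1.58 ± 0.37 (adjusted p = 0.0272, lost in 6 of 15). Because Gm21847 passed the limit on level mainly through the untreated and dabigatran libraries, that choice favours differences between them and the rest.

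**Figure D4:**
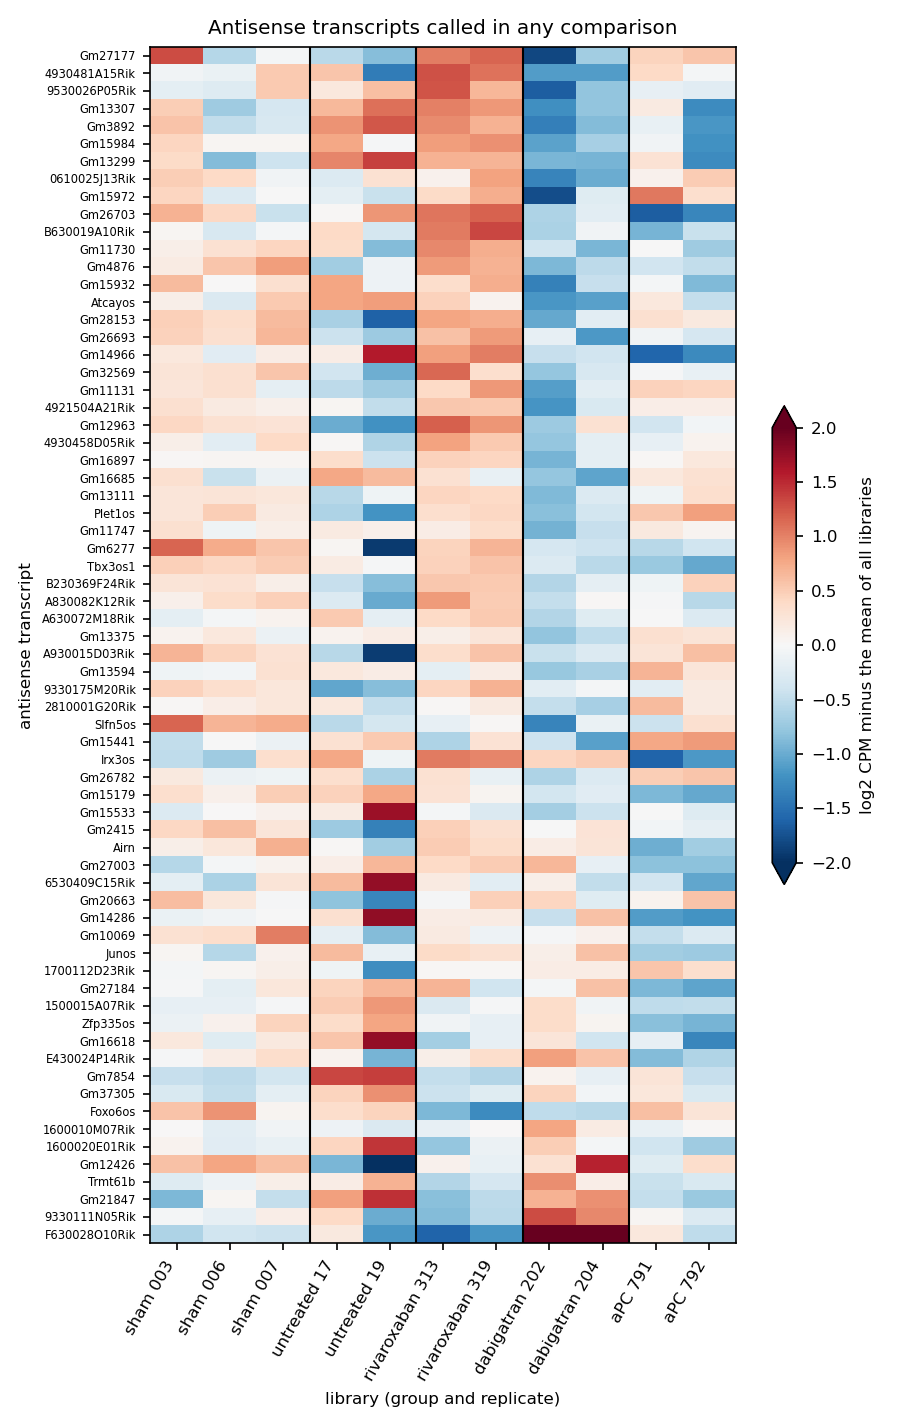
Log2 CPM of the 68 antisense transcripts called in at least 1 comparison (rows) in the 11 libraries (columns), each minus its own mean over the libraries; red is above and blue below the mean, and colours end at 2. Rows run from the lowest to the highest difference of dabigatran minus rivaroxaban, and the columns of Cont_19 and Dabi-202 hold many of the strongest colours.

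Changes of the antisense transcripts were set beside those of their partners. Over the 131 pairs with a tested partner, the log2 differences had the same sign in 93 for dabigatran against rivaroxaban, with Pearson r = 0.46, and in 79 for untreated against sham, with r = 0.36. Over all 10 comparisons r ran from 0.19 (aPC against sham) to 0.46. The points share libraries and depth and carry no p. In untreated against sham 10 antisense transcripts and 18 partners were called, and in 4 pairs both were, all falling together: Gm12426 with Col15a1, Gm12963 with Col16a1, Gm20663 with Gm4070, and Gm10069 with the protease inhibitor gene Pzp. In dabigatran against rivaroxaban 20 antisense transcripts and 27 partners were called, with both called in 6 pairs. Of these, both fell in 5 (Gm26703 with Sparcl1, Gm14966 with Map4k2, Gm11747 with C1qtnf1, Gm15984 with Lnx1 and Gm15932 with Dcaf11), and in 1 pair 9530026P05Rik fell while Adamts9 rose. Gm10069, Gm20663, Gm11747, Gm15984 and Gm15932 fall outside the rule for naming.

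The values of r split by exon overlap and distance did not have the same order in every comparison. For dabigatran against rivaroxaban, r was 0.49 in 102 pairs with exon overlap and 0.34 in 29 without, and 0.60 in 64 pairs with starts within 2000 bases and 0.36 in 67 further apart. For untreated against sham the values were 0.43, 0.18, 0.42 and 0.34. The order by exon overlap was the reverse in aPC against rivaroxaban, with 0.18 in pairs with overlap and 0.45 in pairs without, and in aPC against sham, with 0.15 and 0.30. No test of these differences was made. Of the 9 pairs that start apart within 2000 bases, Gm13375 was lower in dabigatran than in sham by 0.71 ± 0.17 (adjusted p = 0.0178), with 2.91 and 3.19 log2 CPM against 3.59 to 3.93, while Arhgap21 differed by -0.41 (adjusted p = 0.277). Gm13111 fell in the same comparison by 0.81 ± 0.25 (adjusted p = 0.0465), as did the transcription factor gene Prdm16, by 0.58 (adjusted p = 0.0291). Both antisense transcripts were named after their values were seen, and how their calls held under the alternatives is not given here.

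**Figure D5:**
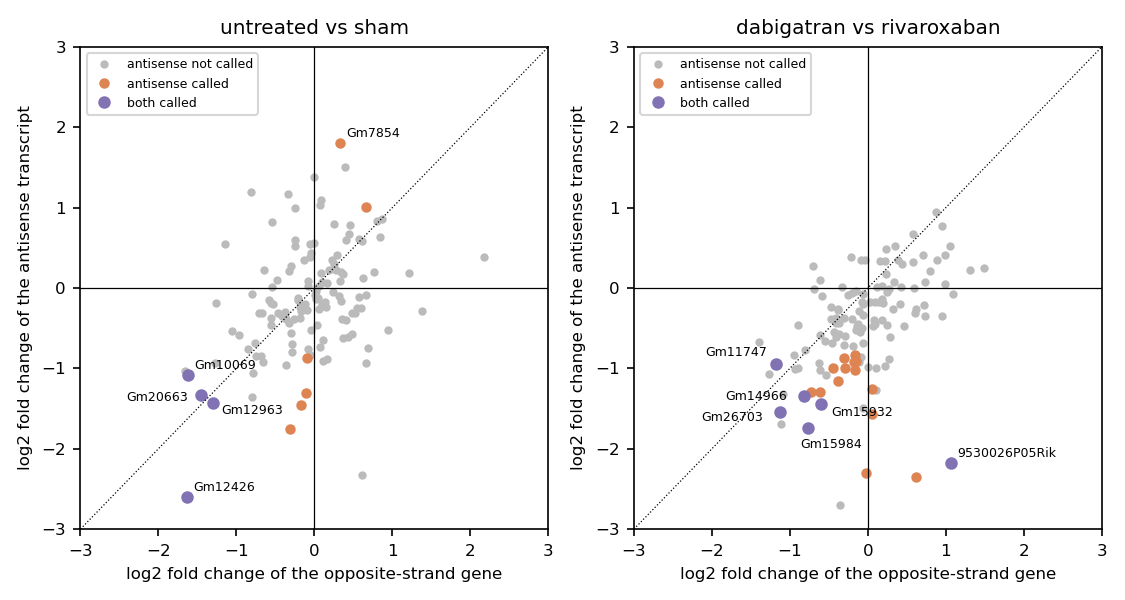
Log2 difference of each antisense transcript (vertical axis) against that of its opposite-strand partner (horizontal axis) in 131 pairs, for untreated against sham (left) and dabigatran against rivaroxaban (right); orange marks pairs with only the antisense called, purple pairs with both called, and the dotted line equal change. The 4 purple points on the left lie in the lower left, and 9530026P05Rik on the right is the 1 purple point with partners moving apart.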

How the data were processed

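Messenger RNA was sequenced from mouse hearts, with polyA RNA purified from 500 ng of total RNA and a strand-marking kit, per the labels. The values deposited by the authors are log2 CPM normalized by TMM, per the labels and the table, and 11 of the 15 labelled samples were used, while the other 4 were not analysed here. The submitters' processing notes list STAR, edgeR, bcl2fastq, Trim Galore and FastQC, and the build mm10. Which counter, annotation and strand setting were used is not given in the sources used here.

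The lowest deposited log2 value was -3.93 in every library, and after its removal 100% of values were whole multiples of 1 read to within 0.05, which gave read numbers for description only. Genes at or above 0 log2 CPM in at least 3 libraries (13541) were tested with two-sided limma-trend in 1 fit of 5 group means, with Benjamini-Hochberg adjustment over all of them and calls at 0.05. R 4.3.3, limma 3.58.1, Python 3.11.15, pandas 2.3.3 and BLAST 2.17.0 were used, and the fit was tested on simulated data. The spread is shared by all groups.

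A partner is the opposite-strand gene of GENCODE M21 with the longest overlap, protein-coding first, or else the nearest opposite start within 2000 bases. Named transcripts were taken by rule: a list of well-studied RNAs, up to 3 called transcripts per direction and comparison with the largest difference and no overlap between groups, the 6 with the most reads, and the 3 least and most variable. Near-identical copies came from a BLAST search of the transcripts. The members and lists were chosen with earlier results of these data known. The 15 alternatives were no filter, quantile normalization, library weights, only the 2 groups, and leaving out each of the 11 libraries. Library weights gave both libraries of a pair the same weight: 0.24 in untreated, 0.66 in dabigatran, 1.46 in aPC and 2.13 in rivaroxaban. Sham libraries had 0.92 to 3.15. This setting thus weights the untreated group down and cannot set Cont_19 apart from Cont_17.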

Additional observations from a re-analysis of the deposited data

How the results depend on the processing

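No paired analysis was possible because no replicate number is shared between groups. No filter on low values changed a count of called antisense transcripts by over 1.5 times. Quantile normalization did so only for aPC against sham (1 in place of 3). With library weights, the counts were 0 for untreated against sham, 0 for rivaroxaban and 0 for dabigatran against untreated, 2 for aPC against untreated, 5 for rivaroxaban against sham, 25 for aPC against sham and 51 for aPC against rivaroxaban. With only the 2 groups fitted they were 2 for untreated against sham, 0, 1 and 0 for rivaroxaban, dabigatran and aPC against untreated, 10 for aPC against sham and 28 for aPC against rivaroxaban. With 1 library left out, the counts ran from 1 to 69 for untreated against sham, and against untreated from 0 to 76 for rivaroxaban, 6 to 59 for dabigatran and 1 to 66 for aPC. Against sham they ran from 1 to 38 for dabigatran and 0 to 15 for aPC, and stayed at 0 for rivaroxaban. They ran from 2 to 59 for dabigatran against rivaroxaban, 0 to 23 for aPC against rivaroxaban and 4 to 47 for aPC against dabigatran. The cause was not tested. A group left with 1 library is assumed to vary like the others.

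Of 93 calls of the 40 named transcripts, 85 were kept without the filter, 84 with quantile normalization, 50 with library weights and 47 with only the 2 groups, and none reversed its sign under these or with any 1 library left out. Just 4 were kept under all 15 alternatives: F630028O10Rik in dabigatran against rivaroxaban and against sham and in aPC against dabigatran, and 9530026P05Rik in dabigatran against rivaroxaban. Restricting partners to genes with exon overlap moved the share of pairs with the same sign by the most in aPC against rivaroxaban, from 62.6% to 55.4%. Groups of 2 libraries, with 22.8 to 37.4 reads at 0 log2 CPM, limit what can be seen in the weaker transcripts.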
